A study of Mus musculus with 6 samples.

Results

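The transcription factors that define hair follicle stem cells of the bulge were followed as a set of 10 listed genes: Sox9, Lhx2, Nfatc1, Nfia, Nfib, Nfix, Tbx1, Foxc1, Foxp1 and Runx1. All 10 were found by Entrez identifier among the 36528 genes of the deposited tables, and all 10 passed the filter on low counts, so that each was among the 15132 genes tested. The cells came from skin of Lgr5-DTReGFP mice, in which the diphtheria toxin (DT) receptor and eGFP are carried at Lgr5, so that DT kills cells expressing Lgr5. One group received DT and the other saline (NaCl in the labels), and both carried the reporter. From both, CD49f-positive, CD34-positive, GFP-negative cells were sorted, that is, bulge cells outside the reporter-positive population, and polyadenylated RNA was sequenced in 3 libraries per group. Dose, time after DT, age, sex and hair cycle stage are not given in the labels, nor whether libraries came from separate animals, so the spread between libraries may be technical. No mice without the receptor were given DT among these samples.

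The bulge is the resting stem cell niche of the hair follicle. Its cells stay quiescent through most of the hair cycle and are activated for a short time to regrow the follicle, or after injury, when they can also repair the epidermis. Sox9 and Lhx2 are needed to form and keep the stem cell state, and Sox9 opens closed chromatin at enhancers of bulge genes. Nfatc1, Foxc1 and Foxp1 hold the cells in quiescence, Tbx1 is needed for their renewal over repeated hair cycles, and Nfib and Nfix together keep the enhancers of stem cell genes active. Runx1 differs from these in that it promotes the entry of the stem cells into growth.

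DNA upstream of the transcription starts is shown for members that fell together and had a window free of GENCODE exons of the gene. Windows came from the RefSeq promoter table (GRCm38.p6). The promoter table held 15 windows for 7 members, and no entry was found in it for Sox9, Nfib and Nfatc1. The 15 include windows of Foxp1 and Tbx1, which are not among the members that fell, and windows that overlap GENCODE exons of the gene. All 15 enter the motif counts below. Each sequence is the 250 bases before a start, 5′ to 3′ on the strand of the gene. Capitals mark matches, on either strand, to short motifs bound by the families of the members themselves: the NFI half-site TTGGC, the SOX core ACAAT, the LIM homeobox core TAATTA, the RUNX site TGTGGT, the forkhead site TGTTTAC, the T-box core GGTGTGA and the NFAT core GGAAAA.
Lhx2, chr2:38339031-38339280, plus strand: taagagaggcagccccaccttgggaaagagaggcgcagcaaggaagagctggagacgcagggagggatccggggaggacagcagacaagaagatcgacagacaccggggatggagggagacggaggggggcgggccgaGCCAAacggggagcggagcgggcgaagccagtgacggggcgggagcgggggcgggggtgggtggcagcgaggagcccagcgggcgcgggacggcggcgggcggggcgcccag
Nfia, chr4:97581693-97581942, plus strand: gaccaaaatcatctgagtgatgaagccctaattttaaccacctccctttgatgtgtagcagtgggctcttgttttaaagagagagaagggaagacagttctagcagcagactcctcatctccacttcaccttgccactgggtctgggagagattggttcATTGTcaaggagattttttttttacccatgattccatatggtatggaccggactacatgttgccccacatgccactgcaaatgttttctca
Nfix, first start, chr8:84780083-84780332, minus strand: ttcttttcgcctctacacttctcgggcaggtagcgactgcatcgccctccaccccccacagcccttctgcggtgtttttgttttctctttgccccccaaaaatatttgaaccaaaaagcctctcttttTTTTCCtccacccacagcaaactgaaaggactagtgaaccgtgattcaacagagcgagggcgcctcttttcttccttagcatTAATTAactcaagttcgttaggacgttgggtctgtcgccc
Runx1, proximal start, chr16:92697330-92697579, minus strand: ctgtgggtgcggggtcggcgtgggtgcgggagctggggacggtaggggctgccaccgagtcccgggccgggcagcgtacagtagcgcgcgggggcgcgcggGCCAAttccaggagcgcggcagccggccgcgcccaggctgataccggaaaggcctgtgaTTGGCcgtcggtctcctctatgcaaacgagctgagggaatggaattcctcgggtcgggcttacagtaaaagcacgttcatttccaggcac
The Runx1 window held 2 NFI half-sites with 54 bases between them, and the Lhx2 window held 1 half-site 112 to 108 bases before the start. The Lhx2 window ends at 38339280, beyond the RefSeq gene start at 38339271, so the start counted from lies within the RefSeq gene. The Nfia window held a SOX core 91 to 87 bases before the start, and the first Nfix window a LIM homeobox core and an NFAT core. Nfix windows at starts 2 and 4 were also free of GENCODE exons of the gene and are not shown. Start 2 held an NFI half-site and a SOX core, and start 4 an NFI half-site and a RUNX site. The NFI half-site occurred in 6 of the 15 windows of members and in 41.5% of all 32851 RefSeq promoter windows, and the SOX core in 4 of 15 and in 27.7%. The RUNX site was found in 2 of 15 windows and in 14.0% of all, the LIM homeobox core in 2 of 15 and in 4.84%, and the NFAT core in 3 of 15 and in 20.4%. The forkhead and T-box motifs occurred in 3.17% and 3.33% of all windows and in none of the 15. A TTGGC preceded by A also holds, on the other strand, the CCAAT box of general promoters, which was in 8 of 15 windows and in 33.8% of all. These matches describe the letters only.

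The 6 libraries held 15300755 to 25558859 reads in genes. The first axis of variation over all genes tested (67.0%) separated DT from saline, and the second (14.2%) set saline library 1 apart, at 56.9, from saline libraries 2 and 3, at -30.7 and -34.5. Saline library 1 was the highest of the saline libraries for 9 of the 10 members (39.0% of all genes tested), so each member is given per library and its test also without a library where that ends the call. Levels in CPM are TMM-scaled reads of a gene relative to the reads of the library in the genes tested. The sort marker Cd34 was at 2348 ± 403 CPM in DT and 2804 ± 355 CPM in saline (SD, n = 3 each). Its log2 fold change was -0.26 (adjusted p = 0.264). The sort marker Itga6, which encodes CD49f, was at 98.8 ± 10.5 CPM in DT and 122 ± 20.5 CPM in saline (-0.31, adjusted p = 0.16). The bulge keratin Krt15 was at 33362 ± 9506 CPM in DT and 34813 ± 6583 CPM in saline (-0.06, adjusted p = 0.854).

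Of the 10 transcription factors 8 fell in the DT libraries, at a Benjamini-Hochberg adjusted p under 0.05 over all genes tested, and the other 2, Foxp1 and Tbx1, did not pass. For comparison, 11.9% of all genes tested fell and 17.2% rose. Of the 7114 genes with a mean of at least 20 CPM, a level reached by every member except Tbx1, 12.8% fell. Most members are highly expressed, and this cut does not match the level of each, with Sox9 and Nfib far above it. The median log2 fold change was -0.70 over the 10 members and -0.01 over all genes tested. All 3 DT libraries lay below all 3 saline libraries for 7 members, as for 20.5% of all genes tested. Scaling by library size alone moved the median of all genes to -0.11, with 2099 genes higher and 2316 lower in DT, against 2600 and 1795 with TMM, and the same number of members, 8, fell. The falls spanned a range between 36.5% for Runx1 and 53.1% for Lhx2. In bulk libraries, a lower level per cell and a smaller share of cells with the transcript cannot be told apart. The count of members that fell was 4 without DT library 2, 3 without DT library 3 and 6 without saline library 1 or 2, with 6.38%, 6.52%, 11.0% and 6.60% of all genes falling in those fits. It was also 8 without DT library 1 or saline library 3 (13.0% and 8.45% of all genes). Without DT library 1 these were not the same 8, since Foxp1 passed (adjusted p = 0.0244) and Runx1 did not (0.0673). The count was 2 in the 2 against 2 libraries of the larger identifier number series (3.11%).

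**Figure D1:**
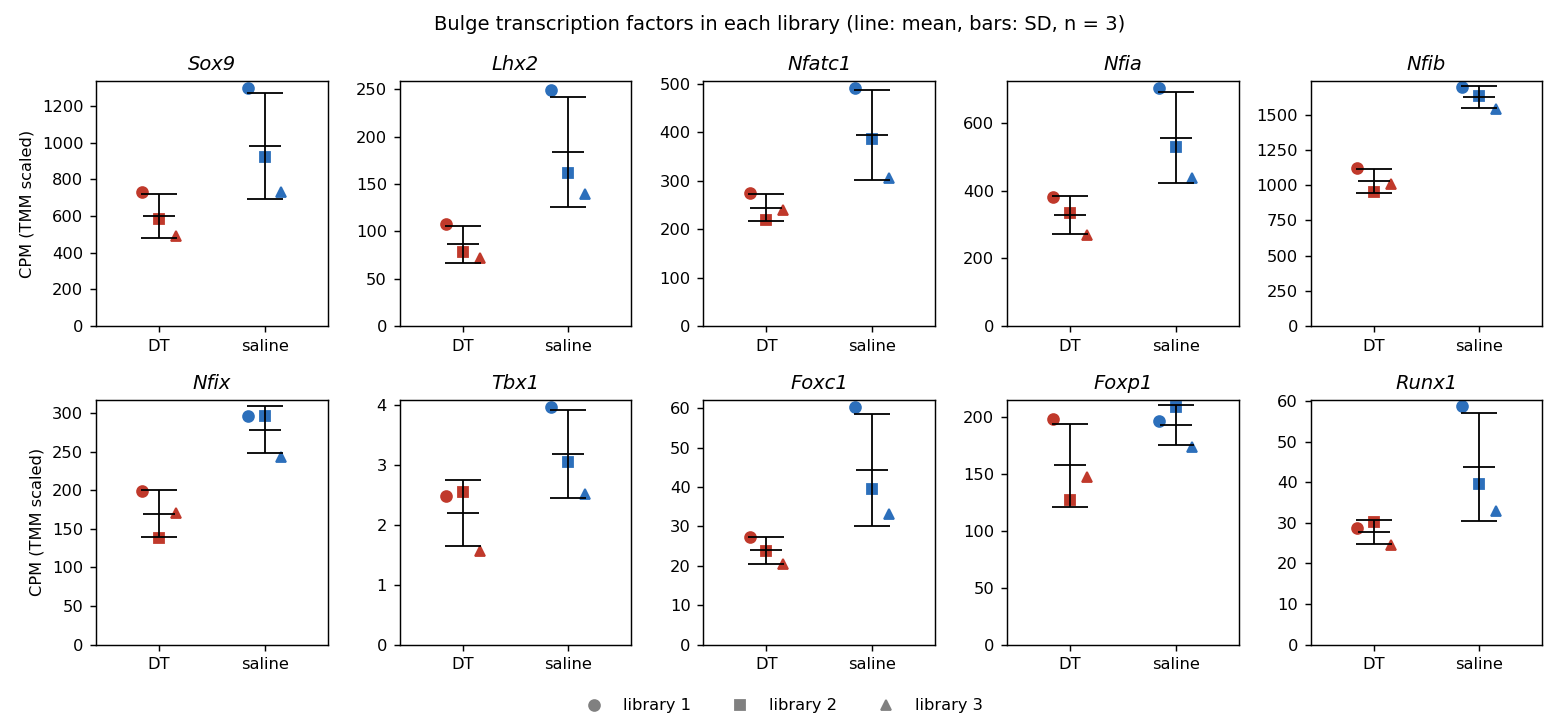
CPM (library-scaled counts) of each transcription factor in the 3 DT and the 3 saline libraries, each axis starting at 0. Lines and bars are the mean and SD. The DT libraries lie below all saline libraries in 7 of the 10 panels, with overlap for Sox9, Tbx1 and Foxp1.

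Sox9, a SOX family pioneer factor that sets up the bulge, fell by 0.71 on the log2 scale. It was at 729.6, 584 and 493 CPM in DT libraries 1 to 3, against 1296, 924 and 729.0 CPM in saline libraries 1 to 3. The highest DT library, library 1, stood level with the lowest saline library, library 3, so the groups touched. The difference had an SE of 0.22, a 95% interval of -1.19 to -0.23 and an adjusted p of 0.0342. It was -0.48 without saline library 1 (adjusted p = 0.075), and it did not pass when saline library 2 (0.0666), DT library 2 (0.0858) or DT library 3 (0.114) was left out. Sox9 lies on chromosome 11, from 112782210 to 112787757 (GRCm38).

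Lhx2, a LIM homeobox factor that keeps the stem cells from early activation, had the largest fall of the 10. It was at 108, 78.5 and 72.1 CPM in the DT libraries, against 249.8, 162 and 139 CPM in the saline libraries. Every DT library was below every saline library. The log2 fold change was -1.09 (SE 0.23, interval -1.60 to -0.58, adjusted p = 0.00696), and 7.32% of all genes tested had a lower one. Lhx2 passed whichever library was left out, at log2 fold changes from -1.29 to -0.83. The gene lies on chromosome 2, from 38339271 to 38369737, and 2 long non-coding RNAs inside its span held reads equal to 1.25% and 0.772% of its own.

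Of the other factors that hold the cells in quiescence, Nfatc1 and Foxc1 fell and Foxp1 did not pass. Nfatc1, a calcium-regulated factor that holds bulge cells out of the cell cycle, was at 274, 219.8 and 239 CPM in the DT libraries, against 492, 386 and 305 CPM in the saline libraries. Its groups did not overlap, and its log2 fold change was -0.69 (SE 0.18, interval -1.09 to -0.30, adjusted p = 0.0165). Without DT library 2 or DT library 3 its adjusted p was 0.0565 and 0.0543. Nfatc1 lies on chromosome 18, from 80606205 to 80713071.

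Foxc1, a forkhead factor that appears in stem cells when they are activated and returns them to rest, was at 27.4, 23.8 and 20.5 CPM in the DT libraries and 60.2, 39.4 and 33.2 CPM in the saline libraries. The groups did not overlap, although saline library 1 was 1.66 times the mean of the other saline libraries. The fall was 0.89 on the log2 scale (SE 0.23, interval -1.40 to -0.38, adjusted p = 0.0171), the largest after Lhx2. It did not pass without DT library 2 or DT library 3 (adjusted p = 0.0514 and 0.0664). Foxc1 lies on chromosome 13, from 31806646 to 31810635.

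Foxp1, another forkhead factor that restrains the activation of bulge cells, was at 198, 127 and 148 CPM in the DT libraries, against 197, 209 and 174 CPM in the saline libraries. DT library 1 stood among the saline libraries and the other DT libraries below them. The log2 fold change was -0.29 (SE 0.17, interval -0.67 to 0.09, adjusted p = 0.225). Without DT library 1 it was -0.50 and passed (adjusted p = 0.0244). Foxp1 spans 98925342 to 99522746 on chromosome 6.

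Tbx1, a T-box factor, had the fewest reads of the members, with 53, 38 and 39 reads in the DT libraries and 96, 66 and 58 reads in the saline libraries. These are 2.49, 2.55 and 1.56 CPM in DT and 3.98, 3.05 and 2.52 CPM in saline, so that DT library 2 lay just above saline library 3. The log2 fold change was -0.54, with an interval from -1.36 to 0.28 (SE 0.37, adjusted p = 0.295). This interval holds both 0 and the falls of the other members, so at these read numbers neither could be told from the other. A long non-coding RNA that overlaps Tbx1 (chromosome 16, from 18580979 to 18590671) held reads equal to 5.43% of those of Tbx1.

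The NFI genes of the set, Nfia, Nfib and Nfix, fell. Nfib, the most highly counted member, was at 1121, 953 and 1008 CPM in the DT libraries, against 1696, 1638 and 1541 CPM in the saline libraries. Both groups were tight and far apart, and the log2 fold change was -0.66 (SE 0.12, interval -0.94 to -0.38, adjusted p = 0.00407). Nfix, which acts together with Nfib in bulge cells, was at 199, 138 and 171 CPM in DT and at 297, 296 and 244 CPM in saline. Its groups did not overlap and its log2 fold change was -0.72 (SE 0.16, interval -1.07 to -0.36, adjusted p = 0.00857). Both passed whichever library was left out. Nfia was at 381, 335 and 269 CPM in DT, against 704, 530.4 and 438 CPM in saline, with no overlap. It fell by 0.76 on the log2 scale (SE 0.19, interval -1.19 to -0.34, adjusted p = 0.0152), and by 0.67 without DT library 3, where it did not pass (adjusted p = 0.0613).

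Because NFI proteins share a binding motif, their relative amounts were compared per length, from the deposited RPKM (reads per gene length and library size). Together with Nfic, the fourth gene of the family and not a member of the set, the NFI genes summed to 178, 153 and 154 RPKM in the DT libraries and 284, 260.4 and 231 RPKM in the saline libraries. Nfib made up 61.7 ± 2.10% of this sum in DT and 61.1 ± 3.56% in saline (SD, n = 3 each). Nfia made up 18.4 ± 2.22% in DT and 19.4 ± 2.73% in saline, Nfix 12.5 ± 1.27% in DT and 12.9 ± 0.571% in saline, and Nfic 7.37 ± 0.769% in DT and 6.55 ± 1.18% in saline. Exact two-sided permutation tests of the 4 shares gave p = 0.6 to 0.9 (adjusted p = 0.9). With 3 against 3 libraries the smallest possible p is 0.1, so these tests could not have passed and do not show that the shares were alike. By counts, Nfic was at 85.3 ± 18.6 CPM in DT and 122 ± 32.6 CPM in saline and did not pass (log2 fold change -0.51, SE 0.22, adjusted p = 0.105). Nfic passed without DT library 1 (-0.71, adjusted p = 0.035) or without saline library 3 (-0.72, adjusted p = 0.0279). A long non-coding RNA within Nfix, G430095P16Rik, held reads equal to 11.9% of those of Nfix, and whether the authors counted by strand is not given in the sources used here.

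Runx1, a Runt-domain factor that promotes the start of hair growth, was at 28.7, 30.2 and 24.5 CPM in the DT libraries and 58.7, 39.7 and 32.8 CPM in the saline libraries. The groups were apart by a narrow gap between DT library 2 and saline library 3. The log2 fold change was -0.66 (SE 0.22, interval -1.14 to -0.17), with an adjusted p of 0.0471, the member nearest to the threshold on its inner side. It passed without saline library 3 and not without any other library (adjusted p up to 0.148), and was -0.41 without saline library 1. Runx1 spans 92601466 to 92826074 on chromosome 16 and has a distal and a proximal promoter, which gene counts do not separate. Its DNA-binding partner Cbfb was at 37.4 ± 1.79 CPM in DT and 44.0 ± 8.19 CPM in saline and did not pass (-0.24, interval -0.61 to 0.14, adjusted p = 0.318).

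**Figure D2:**
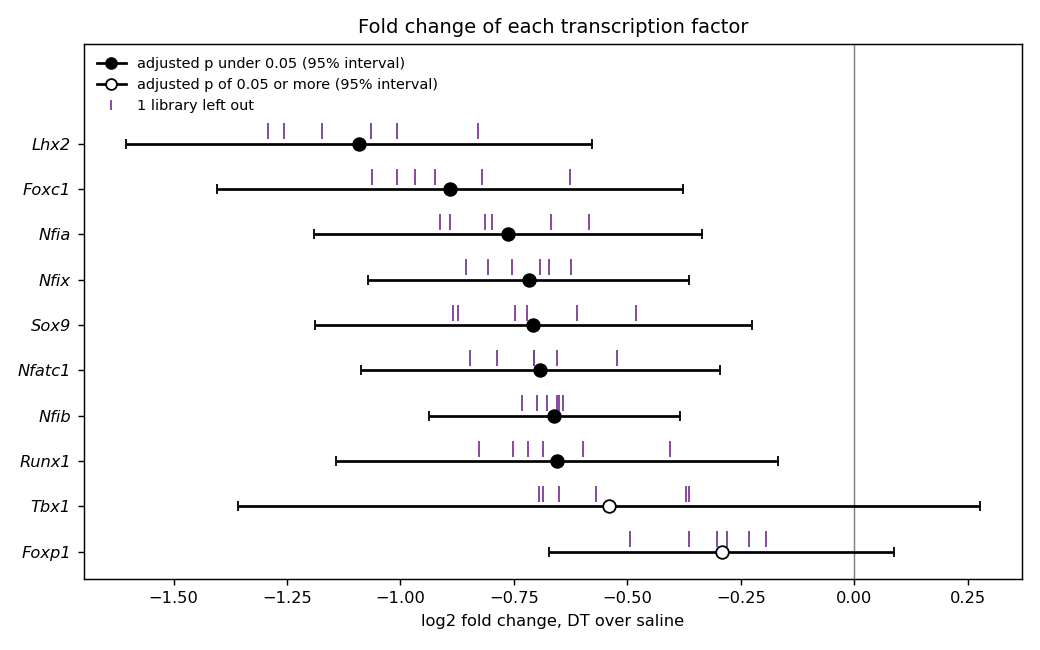
Log2 fold change (DT over saline) of each member with its 95% interval; filled points passed the test and open points did not, and purple ticks give the value with 1 library left out. All ticks lie below 0, from -1.29 for Lhx2 to -0.19 for Foxp1.

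Relative to the saline mean, saline library 1 was higher by 0.32 to 0.44 on the log2 scale for Sox9, Lhx2, Nfatc1, Nfia, Tbx1, Foxc1 and Runx1, and by 0.03 to 0.09 for Nfib, Nfix and Foxp1. Saline library 3 was the lowest of the saline libraries for all 10 members, against 32.4% of all genes tested. Among the DT libraries, library 1 was the highest for 8 of 10 members, against 38.8% of all genes tested. Saline library 3 and DT library 3 belong to a separate number series of the submitters' sample identifiers. Within that series the log2 ratio of the DT to the saline library was negative for all 10, from -0.95 for Lhx2 to -0.23 for Foxp1, with no replicate.

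**Figure D3:**
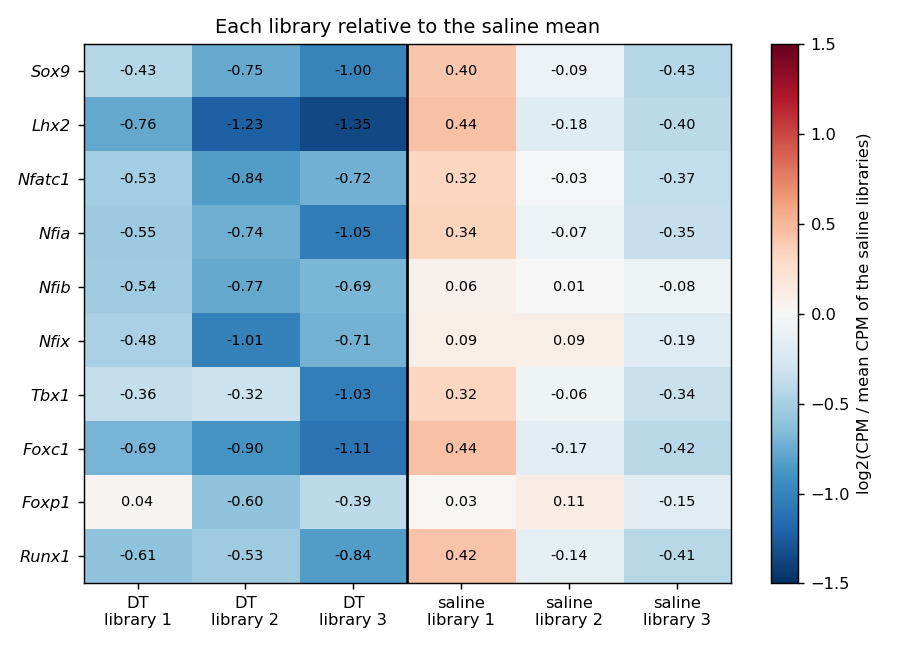
Log2 of the CPM in each library over the mean of the 3 saline libraries, DT libraries to the left of the line and saline libraries to the right. Values in the DT libraries run from -1.35 (Lhx2, library 3) to 0.04 (Foxp1, library 1), and saline library 1 stands out in red for 7 members.

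By level per length, Sox9 led in both groups, at 137 ± 24.8 RPKM in DT (SD, n = 3), against 294, 209 and 166 RPKM in saline libraries 1 to 3. Nfib followed, at 99.6 ± 6.25 RPKM in DT and 157 ± 7.26 RPKM in saline. Sox9 exceeded the level of 96.4% of the genes tested in DT and of 98.6% in saline. Nfatc1, Nfia and Lhx2 formed a middle tier, at 30.9 ± 2.83, 29.9 ± 4.77 and 22.8 ± 4.63 RPKM in DT, against 49.8 ± 11.8, 50.7 ± 12.2 and 48.5 ± 15.4 RPKM in saline. In saline the libraries of all 3 genes overlapped, so their order there was not resolved. In DT, Nfatc1 and Nfia overlapped, while Lhx2 was below Nfatc1 in all libraries and below Nfia within each library. Nfix and Foxp1 came next, at 20.3 ± 3.28 and 12.5 ± 2.63 RPKM in DT and 33.4 ± 3.57 and 15.3 ± 1.37 RPKM in saline, and Nfix overlapped Lhx2 in DT. Foxc1 (5.63 ± 0.736 in DT, 10.4 ± 3.33 in saline) and Runx1 (3.50 ± 0.388 in DT, 5.50 ± 1.68 in saline) were lower, and Foxc1 overlapped Foxp1 in saline. Tbx1 was lowest, at 0.714 ± 0.180 RPKM in DT and 1.03 ± 0.239 RPKM in saline. The order was thus the same in DT and saline but for Nfia and Nfatc1, which did not differ beyond their spread.

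**Figure D4:**
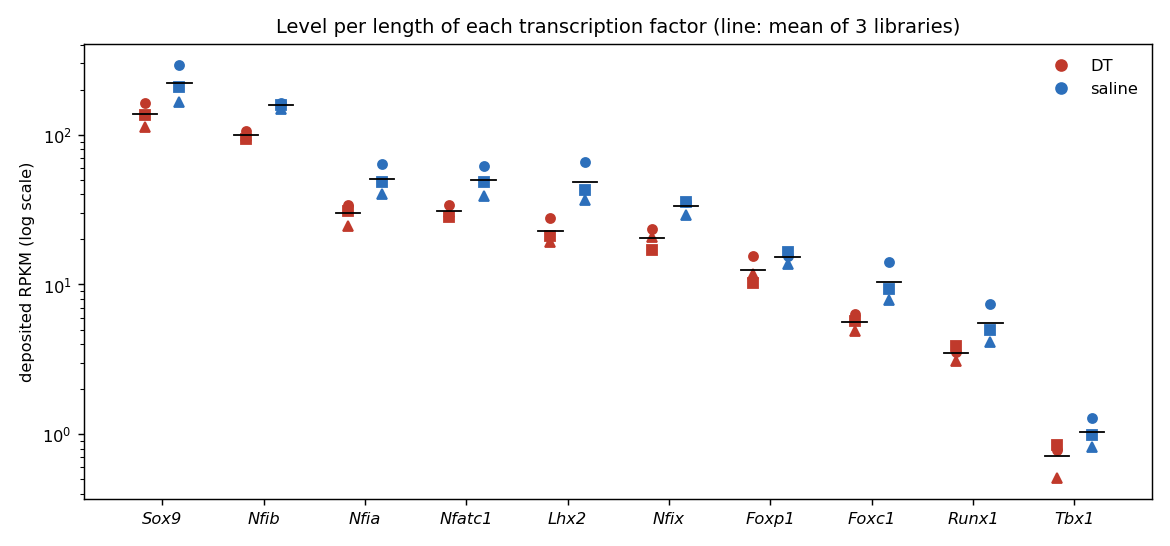
Deposited RPKM of each member on a log axis, in order of the saline mean, with DT libraries to the left and saline libraries to the right of each position; lines are means of 3. Sox9 and Nfib stand above 90 RPKM in every library and Tbx1 below 1.3 RPKM.

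Other genes of the same families were mostly at few or no reads. Of 53 listed family members outside the set, 18 had enough reads to be tested, 14 had no read in any library and 8 reached 5 CPM in a group. Nfat5, an NFAT relative that responds to osmotic stress, fell to 40.3 ± 5.59 CPM in DT, against 58.0 ± 6.39 CPM in saline (log2 fold change -0.53, adjusted p = 0.0319). Nfatc4 was at 1.38 ± 0.648 CPM in DT and 3.46 ± 0.914 CPM in saline (-1.31, adjusted p = 0.0436). The other 16 did not pass (5 of the 18 were lower at an unadjusted p under 0.05), and the median of the 18 was -0.52. Among them, Nfatc3 had a log2 fold change of -0.31 (adjusted p = 0.267), Runx2 of -0.27 (0.477), Sox12 of -0.88 (0.112) and Sox7 of -0.16 (0.793). Foxp3, the forkhead factor of regulatory T cells, was at 17.9 ± 2.76 CPM in DT and 16.4 ± 0.340 CPM in saline (0.13, adjusted p = 0.617). Nfat5 passed without DT library 2 or saline library 1 and not when any other library was left out, and Nfatc4 passed without DT library 1 and not when any other was left out.

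Of 18 other bulge genes tested, 10 fell and 2 rose, with a median log2 fold change of -0.62. For this list and the next, the shares over all genes tested were 11.9% that fell and 17.2% that rose. Grem1, a BMP antagonist, was at 104 ± 8.99 CPM in DT and 285 ± 57.7 CPM in saline (-1.45, adjusted p = 0.000268). Wif1, a secreted Wnt inhibitor, fell by 1.23 on the log2 scale (adjusted p = 0.000862), Lgr5, the gene at which the receptor is carried, by 1.76 (0.000864) and the surface protein gene Cd200 by 0.81 (0.00587). Krt14, the basal keratin, rose by 1.78 (adjusted p = 5.16e-05) and S100a6, a calcium-binding protein, by 1.03 (0.00146). Of 28 other transcription factors of skin epithelium and wounds, 7 fell and 2 rose, with a median of -0.36. Gli1 and Gli2, the effectors of Hedgehog signalling, fell by 1.62 and 1.34 (adjusted p = 0.00047 and 0.000565), the glucocorticoid receptor gene Nr3c1 by 0.98 (0.00146) and Tfap2a by 1.12 (0.00235). Fosl1, an AP-1 subunit of wounded epithelium, rose by 3.36 (adjusted p = 0.000716), and the ETS factor Ehf by 1.71 (0.0286). The epithelial genes Trp63, which encodes the master regulator p63, and Cdh1, which encodes E-cadherin, were chosen after their values were seen. Trp63 was at 868 ± 72.8 CPM in DT and 1060.3 ± 118 CPM in saline (-0.29, interval -0.59 to 0.01, adjusted p = 0.132), and Cdh1 had a log2 fold change of -0.02 (interval -0.32 to 0.28, adjusted p = 0.918).

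A further list held 19 genes linked to the members in hair follicle or epithelial stem cells. Of these 18 were tested, 5 fell and 3 rose (median -0.06), against 11.9% and 17.2% of all genes tested. It shares Bmp6, Lgr5 and Fgf18 with the other bulge genes, Tcf7l2 with the other skin transcription factors and Cbfb with the family genes. The falls of Bmp6 and Lgr5 are therefore counted in both lists. Cdk4, a G1 kinase gene that Nfatc1 represses in the bulge, was at 326 ± 43.5 CPM in DT and 221 ± 18.3 CPM in saline (log2 fold change 0.56, adjusted p = 0.014). Prlr, the prolactin receptor gene, which depends on Nfatc1 in these cells, was at 204 ± 22.4 CPM in DT and 398 ± 62.4 CPM in saline (-0.96, adjusted p = 0.00177). Bmp6, a BMP ligand of the niche, fell by 2.30 (adjusted p = 0.0106), with 1.94 ± 1.15 CPM in DT and 9.46 ± 5.09 CPM in saline, and Bmp2 rose by 1.80 (0.00514). The gene of the CDK inhibitor p21, Cdkn1a, rose by 1.92 (adjusted p = 7.48e-05), and that of p27, Cdkn1b, fell by 0.88 (0.0224). The gene of p57, Cdkn1c, was chosen after its values were seen and was at 1.07 ± 0.254 CPM in DT and 2.80 ± 0.708 CPM in saline (-1.38, adjusted p = 0.0322). Fgf18, a growth factor gene linked to Foxp1, had a log2 fold change of 0.13 (interval -0.59 to 0.85, adjusted p = 0.795). Without DT library 3, 3 of the linked genes fell.

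**Figure D5:**
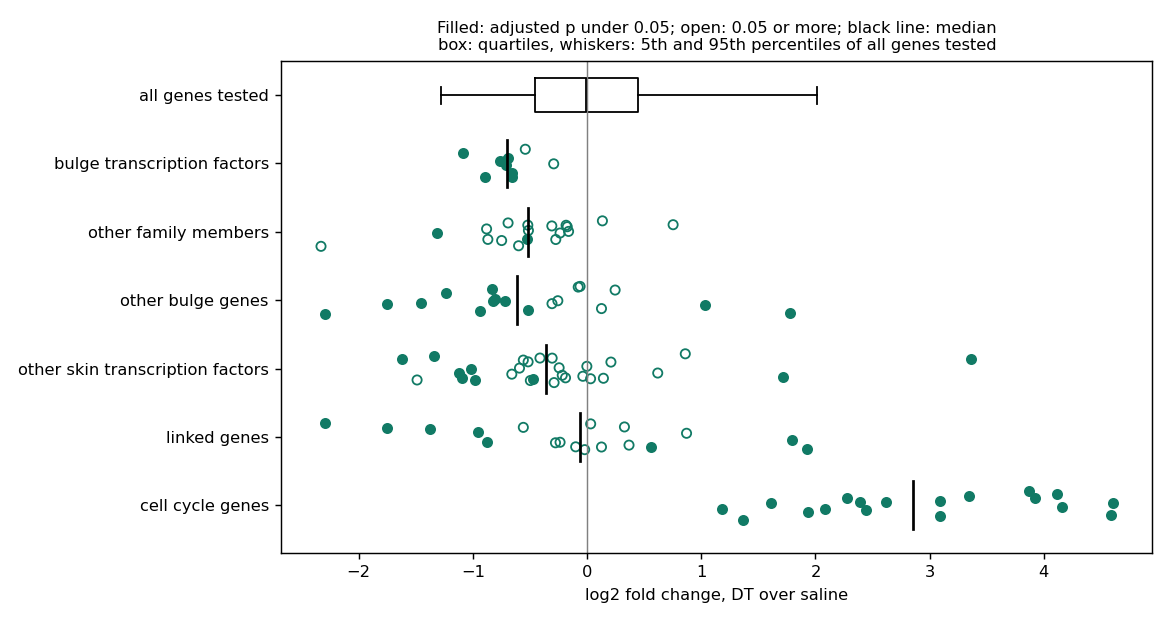
Log2 fold change (DT over saline) of the tested genes of each list, with the spread of all genes tested at the top; filled points passed the test. The 10 members lie between -1.09 and -0.29, the cell cycle genes from 1.18 to 4.60, and the other lists on both sides of 0.

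Genes of the cell cycle and some markers of other cell types also differed between the groups. All 18 cell cycle genes listed rose, with a median of 2.85 and a summed level of 1433 to 2688 CPM in DT and 332 to 368 CPM in saline. Cdk1 was at 167 ± 64.3 CPM in DT and 9.62 ± 0.569 CPM in saline (log2 fold change 4.11), and Mki67 was at 57.1, 102 and 122 CPM in the DT libraries and 19.1, 6.48 and 7.34 CPM in the saline libraries (3.09). The cell cycle sums were 1433, 2688 and 2530 CPM in DT libraries 1 to 3, and DT library 1 was the highest DT library for 8 members. DT library 2 was above DT library 3 in this sum. It was also above it for Sox9, Lhx2, Nfia, Tbx1, Foxc1 and Runx1, but below it for Nfatc1, Nfib, Nfix and Foxp1. A link between the sums and the members was not tested. Of 11 immune markers present in the tables, 10 were tested, 6 fell and Itgam rose, and their sum was 122 to 152 CPM in DT and 187 to 273 CPM in saline, most of it Cd74 (log2 fold change -0.64, adjusted p = 0.00978). Of 6 melanocyte markers 4 were tested and 3 fell (sums of 64.0 to 83.5 CPM in DT, 99.6 to 140.1 CPM in saline). The most abundant of the 6 was Mitf. Of 8 fibroblast markers 2 were tested and Col1a2 fell, with sums of 9.60 to 16.9 CPM in DT and 23.9 to 41.7 CPM in saline. Most of these sums was Col1a2, at 12.3 ± 3.60 CPM in DT and 28.8 ± 7.29 CPM in saline, and Lum was at 0 in every library. Of 8 endothelial markers 6 were tested and their sums overlapped, at 9.85 to 15.6 CPM in DT and 4.72 to 30.3 CPM in saline. Of 6 smooth muscle and pericyte markers 2 were tested. Acta2, the smooth muscle actin gene, rose, at 23.1, 88.2 and 102 CPM in the DT libraries and 0.870, 0.601 and 1.13 CPM in the saline libraries (log2 fold change 6.34, adjusted p = 8.94e-05). The sums of the list were 264 to 337 CPM in DT and 227 to 332 CPM in saline, most of it Cspg4, and Rgs5 was at 0. Of 6 dermal papilla markers 3 were tested and Hhip fell (48.3 to 70.3 CPM in DT, 80.4 to 85.7 CPM in saline; Sox2 at 0). Of 9 suprabasal markers 5 fell, with sums of 1152 to 1305 CPM in DT and 1415 to 1826 CPM in saline. Of 7 upper follicle markers 3 fell and Klk10 rose (444 to 498 CPM in DT, 708 to 891 CPM in saline), and Lgr6 was at 196 ± 4.62 CPM in DT and 436 ± 116 CPM in saline. Of 8 hair germ and matrix markers 7 were tested and Bmp4 fell, with sums of 116 to 179 CPM in DT and 114 to 154 CPM in saline and Shh at 0. Their part in the falls of the transcription factors was not tested.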

How the data were processed

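Reads were aligned with GSNAP to GRCm38, per the submitters' processing notes. Its version, the annotation and any strand setting were not stated there. Per the file headers, the authors' deposited counts hold uniquely aligned reads per gene model. The authors' RPKM includes a library size factor, also per the headers, and equalled each count divided by gene length times 1 constant per library. Entrez identifiers were named with RefSeq GRCm38.p6, which held 31049 of 36528.

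Libraries were numbered within groups by record order, which pairs nothing. Genes were kept by filterByExpr (minimum count 10, total 15), scaled by TMM and tested with edgeR 4.0.16 in R 4.3.3 (robust quasi-likelihood, no covariates, 4 residual degrees of freedom). Adjusted p-values are Benjamini-Hochberg over all 15132 genes, with a threshold of 0.05. Log2 fold changes are DT minus saline, their SE and 95% intervals come from the same fit, and levels are mean ± SD over 3 libraries. The fit was also run on counts simulated from its own means and dispersions. Such counts follow the fitted model, so that run does not check the model against these data. Alternatives were other scalings and filters, DESeq2 1.42.0, limma 3.58.1 (voom, and on log2(RPKM + 1)), the identifier number series, and each library left out. The members and lists were chosen with earlier results of these data known. Named genes were all members, family genes of at least 5 CPM, and up to 4 genes per list and direction with the smallest p. For some cell types the most abundant marker was also named. Other names were chosen after their values were seen. Genes with near-identical copies are under-counted by unique alignment.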

Additional observations from a re-analysis of the deposited data

How the results depend on the processing

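The log2 fold change was negative for all 10 members under all 15 alternatives, and Lhx2 passed the test in every one (from -1.29 to -0.83). Nfib and Nfix lost the call only with the larger number series of identifiers alone, 2 libraries per group, where 6 of the 8 calls were lost: the log2 fold changes were -0.76 for Sox9, -0.79 for Nfia, -0.68 for Nfib, -0.81 for Nfix, -0.96 for Foxc1 and -0.74 for Runx1. In that fit, with fewer samples, 2 members fell, 0 of the other family genes and 6 of the other bulge genes fell, and 1097 genes rose and 473 fell over the whole table (1 family gene was lower there at an unadjusted p under 0.05; on all 6 libraries DESeq2 and limma-voom called 3 and limma on RPKM 2). Runx1 was -0.63 with limma-voom and -0.50 with limma on log2(RPKM + 1), and did not pass in either. With no filter on low counts 5 family genes fell, and 1 with the identifier series as a block; the cause was not tested.

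With each library left out in turn, the log2 fold change ranged from -0.88 to -0.48 for Sox9, -0.85 to -0.52 for Nfatc1, -0.91 to -0.58 for Nfia, -1.06 to -0.63 for Foxc1, -0.83 to -0.41 for Runx1 and -0.50 to -0.19 for Foxp1. The members that fell numbered 3 to 8, other family genes 0 to 2 (3 to 5 at an unadjusted p under 0.05), linked genes 3 to 6, and other skin transcription factors that rose 1 to 2. Over all genes, 1564 to 2826 rose and 996 to 2045 fell. The differences in the shares of Nfia, Nfib and Nfix changed sign in some of these fits, and that of Nfic stayed positive (0.13 to 1.17 percentage points): Nfix was at 0.33 percentage points without DT library 2, Nfia at 0.24 and Nfib at -0.49 without DT library 3, and Nfia at 0.55 and Nfib at -1.11 without saline library 1, within ranges of -2.05 to 0.55 for Nfia, -1.11 to 2.44 for Nfib and -0.83 to 0.33 for Nfix. The order of levels per length kept 8 of 10 ranks in each group with GENCODE exon lengths. In the smaller number series, a value chosen after seeing the data, Nfatc1 was at -0.35 and Nfix at -0.51. No paired analysis was possible because the labels give no replicate numbers. Depth limits Tbx1 most.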
